A study of Mus musculus with 11 samples.

Results

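The cholesterol synthesis genes described here were Srebf2, which encodes the transcription factor SREBP2, and its targets Hmgcs1, Idi1, Fdps, Fdft1, Sqle, Lss and Insig1, chosen by name as a working list of the mevalonate and squalene steps with their regulator. Of the 8 genes, 7 were listed among the 28222 genes of the count table, and all 7 passed the filter on low counts that left 16132 genes for testing. Fdps, which encodes farnesyl diphosphate synthase, was not analysed here. The 11 RNA-seq libraries came from mesenchymal stem cells (MSCs, bone stromal cells able to form bone and fat cells) of wild-type male C57BL/6N mice. Cells grown out of hind-limb bone chips had been sorted for Sca-1 and CD140a and against CD45 and TER-119. Young and old cells alike were kept at 2% oxygen. The 4 groups were young MSCs of 3 to 5 months in batch A (A young, 4 libraries), young and old MSCs in batch B (B young and B old, 2 libraries each) and old MSCs of 18 to 22 months in batch C (C old, 3 libraries). What a batch was is not given in the labels, and neither is whether the libraries of a group came from separate animals, so p-values measure the spread between these libraries, which may be technical. Age and batch can be told apart only within batch B.

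SREBP2 is made as a membrane protein of the endoplasmic reticulum, where it is bound by the escort protein SCAP. When membrane cholesterol is plentiful, INSIG proteins hold the complex back, and when it is low, SCAP carries SREBP2 to the Golgi apparatus, where proteases release the part that enters the nucleus. This part binds sterol regulatory elements, usually beside sites for NF-Y and Sp1, in the promoters of nearly all enzymes of cholesterol synthesis, of INSIG1 and of its own gene. The mevalonate steps also supply isoprenoids for protein prenylation, ubiquinone and dolichol. Messenger RNA levels of the targets are often used as a readout of this processing, which was not itself measured here.

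The promoters of 4 members are shown because these members differed between C old and A young MSCs, as given below. Each line holds the 250 bases before the RefSeq transcription start in GRCm38.p6, on the + strand, and capitals mark the motifs searched on both strands, which were the sterol regulatory element TCACNCCAC, the NF-Y box CCAAT, which reads ATTGG on the other strand, and the Sp1 box GGGCGG, which reads CCGCCC there. No match overlapped another in these windows, and 3 of them (Srebf2, Idi1 and Insig1) reach past the start of the gene in the GENCODE annotation.
Hmgcs1: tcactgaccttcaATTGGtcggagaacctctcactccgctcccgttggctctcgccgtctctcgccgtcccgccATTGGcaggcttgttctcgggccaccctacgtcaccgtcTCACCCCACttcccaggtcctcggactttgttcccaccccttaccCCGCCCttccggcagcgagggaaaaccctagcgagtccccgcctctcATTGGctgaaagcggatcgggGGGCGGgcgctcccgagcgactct
Idi1: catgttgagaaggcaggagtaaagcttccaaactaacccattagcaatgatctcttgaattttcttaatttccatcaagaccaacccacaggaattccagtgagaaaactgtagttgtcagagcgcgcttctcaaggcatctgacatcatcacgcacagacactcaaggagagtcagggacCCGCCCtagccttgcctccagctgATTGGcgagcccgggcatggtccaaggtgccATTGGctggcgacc
Insig1: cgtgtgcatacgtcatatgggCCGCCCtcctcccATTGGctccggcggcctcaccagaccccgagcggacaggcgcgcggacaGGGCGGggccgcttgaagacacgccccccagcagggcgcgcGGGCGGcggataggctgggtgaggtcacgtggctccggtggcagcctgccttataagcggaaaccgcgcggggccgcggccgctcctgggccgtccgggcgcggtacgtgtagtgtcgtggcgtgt
Srebf2: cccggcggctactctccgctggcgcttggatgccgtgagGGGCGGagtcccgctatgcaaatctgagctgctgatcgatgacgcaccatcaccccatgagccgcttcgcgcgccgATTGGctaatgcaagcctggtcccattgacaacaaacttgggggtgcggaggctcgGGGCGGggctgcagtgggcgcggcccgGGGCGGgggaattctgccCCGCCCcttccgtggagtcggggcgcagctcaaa

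The windows lie at chr13:119690101-119690350 (Hmgcs1), chr13:8885356-8885605 (Idi1), chr5:28071162-28071411 (Insig1) and chr15:82147019-82147268 (Srebf2). The NF-Y box was found in 5 of the 5 members with a promoter sequence, the fifth being Lss, and in 33.9% of 32851 promoter windows of the same length. The Sp1 box was found in the same 5 and in 32.7% of the windows. The sterol regulatory element as spelled out above was found in Hmgcs1, where it starts 137 bases before the transcription start, and in 1.05% of the windows. A match is a string of letters and not a measured binding site, and a missing match says only that these letters were not in this window.

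The libraries held between 11969336 and 20315934 counts, and 3 counts, taken as the floor of detection, correspond to 0.156 to 0.253 CPM (counts scaled to library totals that were adjusted by TMM factors). The members lay far above this floor. The lowest member count was 161, for Idi1 in A young 2, which carries a counting error of 7.88%, and the highest was 2567, for Srebf2 in B young 1, with 1.97%. The sorted cells expressed the markers of the sort in all libraries, with Pdgfra (CD140a) between 109 and 289 CPM and Ly6a (Sca-1) between 270.2 and 778 CPM. The summed level of 14 blood cell markers ranged from 649.5 to 1420.5 CPM in A young, from 369 to 746 CPM in B young, from 746 to 1083 CPM in B old and from 130.4 to 153 CPM in C old. The summed level of 10 markers of dividing cells ranged from 310.1 to 575 CPM in A young, from 198 to 234 CPM in B young, from 269.9 to 385 CPM in B old and from 552 to 625 CPM in C old. Ptprc, the gene of the CD45 against which cells were sorted, was at 3.47 to 22.2 CPM, and the red cell genes Hbb-bs and Alas2 were at 0 in all A young libraries. Hbb-bs was at 0.417 to 1.23 CPM in B young, at 0.935 to 1.48 CPM in B old and at 0 in C old. Alas2 was at 0.2355 to 0.458 CPM in C old and did not exceed 0.0681 CPM in B young or B old. Of 5 endothelial markers, Pecam1, Cdh5 and Emcn did not exceed 0.589 CPM and Kdr did not exceed 0.743 CPM. Tek, the gene of the angiopoietin receptor, was at 1.30 to 8.56 CPM and was called higher in B young than in A young (log2 difference 1.22, edgeR adjusted p = 0.0156) and in C old than in A young (2.10, edgeR adjusted p = 1.85e-05). The blood, dividing cell and mesenchymal markers and Tek differed between the groups in which the members differed, and their part in the results was not tested. In bulk libraries, fewer cells that express a gene and less RNA per cell cannot be told apart.

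The summed level of the 7 members was lowest in A young, at 313 to 349 CPM. It lay between 399 and 419 CPM in B young, between 428 and 442 CPM in B old and between 378 and 412 CPM in C old. The A young libraries were thus below all others. The members did not share 1 pattern, however, as shown in the plot of their levels by library. Over all libraries, the highest level exceeded the lowest 2.97-fold for Idi1, 2.51-fold for Hmgcs1, 1.75-fold for Insig1, 1.61-fold for Fdft1, 1.57-fold for Sqle, 1.56-fold for Lss and 1.47-fold for Srebf2. Within groups, the SD of log2 CPM was 0.065 for Hmgcs1 and 0.17 for Idi1, the lowest and the highest of the members. Whether groups overlap is stated below as a description of few libraries, and the share of all genes that separate likewise is not given here.

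**Figure D1:**
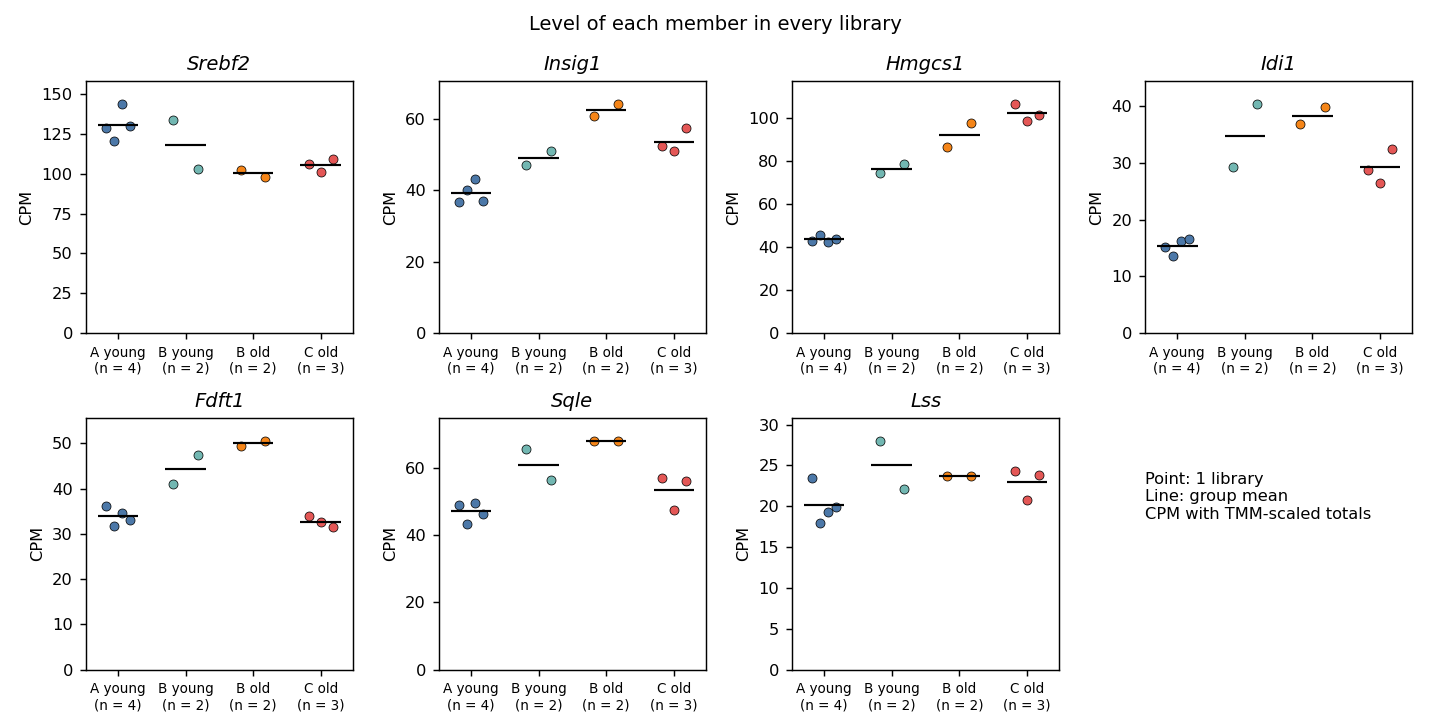
Level of the 7 members in CPM (y axis, from 0) in the 4 groups (x axis), with a point for each of the 11 libraries and a line at the group mean. Hmgcs1 and Idi1 were lowest in the 4 A young libraries (42.5 to 45.5 and 13.6 to 16.7 CPM), whereas Srebf2 had its highest library there (144 CPM).

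Srebf2 (ENSMUSG00000022463, GRCm38 chr15:82147181-82205379, + strand) encodes the factor itself. It was at 129, 121, 144 and 130.2 CPM in the 4 A young libraries, at 134 and 103 CPM in B young, at 103 and 98.2 CPM in B old and at 106, 101 and 109.6 CPM in C old. The young libraries were the higher ones, with the exception of B young 2, which lay within the range of the old libraries. All C old libraries were below all A young libraries. Insig1 (ENSMUSG00000045294, chr5:28071363-28078662, + strand) encodes the retention protein that is itself induced by SREBP2. Its levels were 36.8, 40.2, 43.3 and 37.1 CPM in A young, 47.3 and 50.9 CPM in B young, 60.9 and 64.3 CPM in B old and 52.3, 51.0 and 57.5 CPM in C old. The 4 groups did not overlap, and C old lay between B young and B old. Insig1 was not called between B young and B old or between B old and C old, as given below.

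Hmgcs1 (ENSMUSG00000093930, chr13:119690379-119708260, + strand) encodes cytosolic HMG-CoA synthase, an early enzyme of the mevalonate steps. It was measured at 43.0, 45.5, 42.5 and 44.0 CPM in A young, at 74.4 and 78.7 CPM in B young, at 86.8 and 97.8 CPM in B old and at 107, 98.9 and 101 CPM in C old. These groups did not overlap and stood in this order, but B old reached 97.8 CPM and C old began at 98.9 CPM. Neither the step from B young to B old nor that from B old to C old was called, as given below. Idi1 (ENSMUSG00000058258, chr13:8885501-8892451, + strand) encodes isopentenyl diphosphate isomerase, which interconverts the isoprenoid building blocks. Its values were 15.2, 13.6, 16.2 and 16.7 CPM in A young, 29.2 and 40.4 CPM in B young, 36.8 and 39.8 CPM in B old and 28.8, 26.4 and 32.4 CPM in C old. The A young libraries stood apart from all others, the libraries of B young lay on either side of those of B old, and all C old libraries were below both B old libraries.

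Fdft1 (ENSMUSG00000021273, chr14:63145150-63179578, − strand) encodes squalene synthase, the first enzyme committed to sterols. Its libraries gave 36.2, 31.7, 34.7 and 33.0 CPM in A young, 41.0 and 47.4 CPM in B young, 49.4 and 50.6 CPM in B old and 33.9, 32.5 and 31.4 CPM in C old. A young and C old overlapped, and the 4 batch B libraries were above both. Sqle (ENSMUSG00000022351, chr15:59315077-59331192, + strand) encodes squalene epoxidase, a rate-limiting enzyme of the sterol steps. It was at 48.8, 43.3, 49.6 and 46.3 CPM in A young, 65.5 and 56.3 CPM in B young, 68.0 and 67.8 CPM in B old and 56.9, 47.5 and 56.0 CPM in C old. B old was above all other libraries, and C old 2 lay within the range of A young. Lss (ENSMUSG00000033105, chr10:76531588-76557138, + strand) encodes lanosterol synthase, which closes the sterol rings. Its levels were 23.5, 18.0, 19.2 and 19.9 CPM in A young, 28.0 and 22.1 CPM in B young, 23.7 and 23.7 CPM in B old and 24.4, 20.8 and 23.9 CPM in C old, and the groups overlapped apart from the fact that B old was above A young.

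Reads from parts of 4 members can be shared with other genes. For overlaps on the opposite strand this holds because the use of strand in counting is not stated. For Idi1 and Fdft1 it holds also because other genes carry the same sequence. Fdft1 shares 774 of its 4227 exon bases (18.3%) with Ctsb on the opposite strand, the gene of the lysosomal protease cathepsin B, which was at 426 to 997 CPM. Hmgcs1 shares 12.1% of its exon bases with the antisense gene Gm48342, which did not exceed 0.290 CPM, and Lss shares 3.5% with 4930483K19Rik, which did not exceed 0.131 CPM. Such windows of the longest Fdft1 transcript, each of 100 bases, occur in Ctsb or Gm6781 for 21.5%, and Gm6781 was at 0.0845 to 0.826 CPM. Of the 100-base windows of the longest Idi1 transcript, 27.6% occur also in Gm13502, Gm35570 or Gm48574, and Gm13502 was at 0.388 to 2.61 CPM. Between B young and A young, Gm13502 had a log2 difference of 1.03 (SE 0.37, edgeR adjusted p = 0.0515), and the part of shared reads in the Idi1 value was not tested. Idi1 and Fdft1 are therefore the less certain measurements, whereas no such window was shared for Srebf2, Sqle or Insig1.

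Levels of different genes were compared per kilobase of the longest transcript (RPKM). In A young MSCs, Srebf2 ranked first at 25.8 ± 1.90 RPKM (SD, n = 4), followed by Insig1 at 14.6 ± 1.12, Hmgcs1 at 12.6 ± 0.388, Sqle at 10.5 ± 0.631, Fdft1 at 9.16 ± 0.533, Idi1 at 5.09 ± 0.447 and Lss at 2.88 ± 0.338. Of these neighbours, only Sqle and Fdft1 overlapped between libraries. In C old MSCs, Hmgcs1 ranked first at 29.5 ± 1.15 RPKM (SD, n = 3), ahead of Srebf2 at 20.8 ± 0.869, Insig1 at 19.9 ± 1.28, Sqle at 12.0 ± 1.16, Idi1 at 9.65 ± 1.01, Fdft1 at 8.82 ± 0.330 and Lss at 3.29 ± 0.280. Here Srebf2 overlapped with Insig1, Sqle with Idi1, and Idi1 with Fdft1. In B old, Hmgcs1 also ranked first (26.6 RPKM), before Insig1 (23.2 RPKM) and Srebf2 (19.8 RPKM), without overlap. In B young, Srebf2 (23.3 RPKM) and Hmgcs1 (22.1 RPKM) overlapped, and so did Sqle, Fdft1 and Idi1 (13.6, 12.0 and 11.5 RPKM). Lss had the lowest level per kilobase in each group.

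The first comparison asked whether the members differed with age when batch was held constant. Between B old and B young MSCs, 0 of the 7 members passed the threshold in edgeR's quasi-likelihood test with Benjamini-Hochberg adjustment over all genes tested, against a background of 0.694% of genes called higher and 1.54% called lower. At an unadjusted p under 0.05 there were 2 of 7 members, Insig1 and Hmgcs1, against 16.1% of all genes tested. limma-trend and DESeq2 also called 0 members. The differences nearest to the threshold were those of Insig1, with a log2 difference of 0.35 (SE 0.11, edgeR adjusted p = 0.122), and Hmgcs1, with 0.27 (SE 0.10, edgeR adjusted p = 0.192). Both genes were above the B young libraries in each of the 2 B old libraries, a separation that carries little weight with 2 libraries per group.

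The other members gave smaller differences in the same comparison. The log2 fold changes of the enzymes Fdft1, Sqle and Idi1 were 0.18 (SE 0.11), 0.16 (SE 0.12) and 0.14 (SE 0.15). Those of Lss and Srebf2 were −0.08 (SE 0.15) and −0.24 (SE 0.13, edgeR adjusted p = 0.37). The median over the members was 0.16, and that over all genes tested was 0.00445. The differences of Srebf2 and Idi1 depended on the B young libraries, which were further apart for these genes than those of other groups. Without B young 2, the log2 fold change of Srebf2 was −0.42 and that of Insig1 0.40, and without B young 1 the sign of Idi1 turned to −0.08. Each of these values rests on 1 B young library. When batch was ignored, Hmgcs1 (0.86, edgeR adjusted p = 0.0126) and Insig1 (0.44, edgeR adjusted p = 0.0216) were called higher in old MSCs. In that fit 2641 of 14689 genes were called, 51.9% of them higher. The markers were compared between B old and B young in the main fit, in which batch was not ignored. There, 13 of 14 blood cell markers and 10 of 10 markers of dividing cells had a positive log2 fold change. Their medians were 0.65 and 0.57, and 0 of them were called. Of 10 mesenchymal markers, 8 had a negative log2 fold change, with a median of −0.27, and Pdgfra, a marker of the sort, was called lower in B old (−0.86, edgeR adjusted p = 0.0059).

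**Figure D2:**
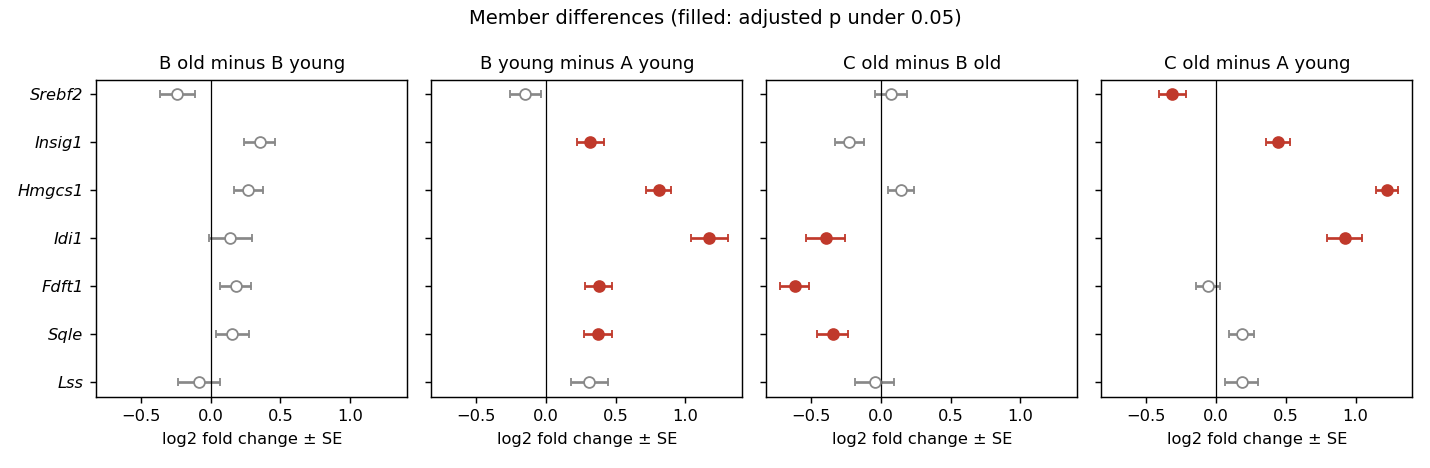
Log2 fold change with its SE (x axis) of each member (y axis) in 4 comparisons, with filled red points for an edgeR adjusted p under 0.05 and open grey points otherwise. No point is filled for age within batch B, 5 are for B young against A young, 3 for C old against B old and 4 for C old against A young.

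The second comparison set the young MSCs of batch B against those of batch A, at the same labelled age. Of the 7 members, 5 were higher in B young and 0 were lower, against 12.8% of all genes tested called higher and 13.1% called lower. Idi1 differed most, with a log2 difference of 1.17 (SE 0.13, edgeR adjusted p = 8.47e-05), or 2.25-fold. Hmgcs1 followed with 0.81 (SE 0.087, edgeR adjusted p = 5.99e-05), or 1.75-fold. The squalene genes Fdft1 and Sqle were higher by log2 differences of 0.38 (SE 0.097, edgeR adjusted p = 0.00946) and 0.37 (SE 0.10, edgeR adjusted p = 0.014), and Insig1 by 0.32 (SE 0.098, edgeR adjusted p = 0.025). Lss did not pass the threshold (0.31, SE 0.13, edgeR adjusted p = 0.0938).

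Srebf2 itself was not called between the young batches, with a log2 difference of −0.14 (SE 0.11, edgeR adjusted p = 0.36). The median over the members was 0.37, compared with −0.01 over all genes tested. With a correction for transcript length and GC content, the sign of Srebf2 turned and it was called higher (0.26, edgeR adjusted p = 0.0287), whereas without B young 1 it was called lower (−0.35, edgeR adjusted p = 0.0232). Without B young 2 its value was 0.03. Leaving out B young 2 removed the calls of Fdft1 (edgeR adjusted p = 0.105) and Insig1 (edgeR adjusted p = 0.141), leaving out B young 1 removed that of Sqle (edgeR adjusted p = 0.102), and leaving out A young 4 removed that of Insig1 (edgeR adjusted p = 0.055). Hmgcs1 and Idi1 were called higher in all 19 alternatives run. For Fdft1, the overlapping gene Ctsb was higher in B young as well, by 0.35 (SE 0.099, edgeR adjusted p = 0.0169). Of the marker lists, 9 of 10 genes of dividing cells and 7 of 14 blood cell genes were lower in B young. So were 4 of 10 mesenchymal genes, while 1, Ly6a, was higher. Among the blood cell genes 1 was higher, Hbb-bs, which did not exceed 1.23 CPM in B young.

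The third comparison set C old against B old MSCs. Here 3 of the 7 members were lower in C old and 0 were higher, while 28.3% of all genes tested were called lower and 26.9% higher, so that the 3 of 7 are to be read against a high background. Fdft1 was lower by a log2 difference of −0.62 (SE 0.10, edgeR adjusted p = 0.000112). Ctsb, which covers part of Fdft1 on the other strand, was also lower (−1.11, SE 0.10, edgeR adjusted p = 5.48e-07), and the part of shared reads in the Fdft1 value was not tested. Idi1 and Sqle were lower by −0.39 (SE 0.14, edgeR adjusted p = 0.0264) and −0.34 (SE 0.11, edgeR adjusted p = 0.0133). Both of these calls were lost without B old 1, without B old 2 or without C old 2, with edgeR adjusted p-values from 0.061 to 0.149, and both were lost when libraries were scaled by total counts (edgeR adjusted p = 0.214 for Sqle and 0.254 for Idi1). The call of Idi1 was also lost without C old 1 (edgeR adjusted p = 0.0736) and in DESeq2 (adjusted p = 0.0547).

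The remaining members were not called between the old batches. Their log2 fold changes were −0.22 for Insig1 (SE 0.10, edgeR adjusted p = 0.0742), −0.04 for Lss (SE 0.14, which turned to 0.15 under scaling by total counts), 0.07 for Srebf2 (SE 0.12) and 0.15 for Hmgcs1 (SE 0.093, edgeR adjusted p = 0.185). Scaled by total counts, Hmgcs1 was called higher in C old (0.34, edgeR adjusted p = 0.00749). The median over the members was −0.22, against 0.02 over all genes tested. With the length and GC correction, Srebf2 turned to −0.42 (edgeR adjusted p = 0.00052) and Lss to −0.46 (edgeR adjusted p = 0.00656), both called lower. Of the 14 blood cell markers, 13 were lower in C old and 1 was higher, with a median of −2.63. Among markers of dividing cells, 4 of 10 were higher. Of 10 mesenchymal markers, 3 were higher, among them Pdgfra (1.23, edgeR adjusted p = 2.78e-06), and 2 were lower.

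The fourth comparison, C old against A young MSCs, changed age and batch together, and the 2 cannot be told apart in it. Of the members, 3 were higher and 1 was lower in C old, against 27.1% and 31.4% of all genes tested. Hmgcs1 rose by a log2 difference of 1.23 (SE 0.078, edgeR adjusted p = 7.42e-09), from 43.7 ± 1.34 CPM (SD, n = 4) to 102 ± 3.98 CPM (SD, n = 3). Idi1 rose by 0.92 (SE 0.12, edgeR adjusted p = 1.19e-05), from 15.4 ± 1.35 to 29.2 ± 3.04 CPM. Insig1 rose by 0.45 (SE 0.087, edgeR adjusted p = 0.000386), from 39.3 ± 3.03 to 53.6 ± 3.45 CPM. These 3 calls held in all 19 alternatives run, with Insig1 at 0.80 when libraries were scaled by total counts and Idi1 at 0.58 under the length and GC correction. In the same comparison, 12 of 14 blood cell markers were lower in C old and 1 was higher, with a median of −2.77. Of 10 mesenchymal markers 6 were lower, among them the collagen genes Col1a1 (−1.56, edgeR adjusted p = 1.12e-06) and Col1a2 (−1.18, edgeR adjusted p = 3.76e-06), and 1, Pdgfra, was higher. Of 10 markers of dividing cells, 2 were higher.

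Srebf2 moved in the other direction, with a log2 difference of −0.31 (SE 0.097, edgeR adjusted p = 0.0121), from 131 ± 9.65 to 106 ± 4.41 CPM. This call was lost without A young 3 (edgeR adjusted p = 0.0502) and without C old 2 (edgeR adjusted p = 0.074), and its sign turned to 0.04 when libraries were scaled by total counts. Under that scaling the median of all genes tested was 0.33 instead of −0.03, and the share of called genes that were higher was 73.5% instead of 46.3%, and Srebf2 lay below that median under both scalings. Sqle (0.19, SE 0.092), Lss (0.19, SE 0.12) and Fdft1 (−0.06, SE 0.088) did not pass the threshold, with edgeR adjusted p-values of 0.0944, 0.192 and 0.599. Scaled by total counts, all 3 were called higher (0.54, 0.54 and 0.30), so that the sign of Fdft1 turned, and Sqle was called higher also with RLE factors (edgeR adjusted p = 0.0317), in DESeq2 (adjusted p = 0.0388) and without C old 2 (edgeR adjusted p = 0.0264). The median over the members was 0.19.

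The fifth comparison subtracted the age difference within batch B from the difference between C old and A young. It was higher than 0 for 2 of 7 members and lower for 0, against 15.9% and 19.8% of all genes tested. These were Hmgcs1, with a log2 value of 0.96 (SE 0.13, edgeR adjusted p = 5.47e-05), and Idi1, with 0.78 (SE 0.20, edgeR adjusted p = 0.00622). For the other members the values were 0.27 for Lss, 0.10 for Insig1, 0.03 for Sqle, −0.07 for Srebf2 and −0.24 for Fdft1, and none was called. The median was 0.10, with −0.03 over all genes tested. Of the marker lists, 12 of 14 blood cell markers had a value called lower and 1 called higher, with a median of −3.48. Values called lower were also found for 3 of 10 mesenchymal markers, with 1 called higher, and for 2 of 10 markers of dividing cells.

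The other enzymes of cholesterol synthesis, a list of 14 genes beginning with Acat2, were measured alongside the members. Their summed level was lowest in A young (358 to 409 CPM) and C old (367 to 399.8 CPM), and was 489.5 to 526 CPM in B young and 566 to 581 CPM in B old. Within batch B, 0 of 14 enzymes were called with age, against 2.23% of all genes tested. A positive log2 fold change was found for 11, against 50.5% of all genes tested, and the median was 0.17. Between the young batches, 6 of 14 were higher in B young and 0 were lower, with a median of 0.13, against 12.8% and 13.1% of all genes tested. Among them were the demethylation enzymes Cyp51 (0.73, edgeR adjusted p = 0.000205) and Msmo1 (0.88, edgeR adjusted p = 0.00026) and the desaturase gene Sc5d (0.80, edgeR adjusted p = 8.05e-05).

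Between the old batches, 9 of the 14 enzymes were lower in C old and 0 were higher, with a median of −0.42, against 28.3% and 26.9% of all genes tested. The sterol isomerase gene Ebp (−1.10, edgeR adjusted p = 1.91e-06), Msmo1 (−1.08, edgeR adjusted p = 5.10e-06) and Cyp51 (−0.76, edgeR adjusted p = 1.99e-05) were among them. In the plot of the enzymes in pathway order, the enzymes called higher in B young included steps before and after squalene, and Hmgcs1 was the enzyme with the most positive value between B old and C old. Between C old and A young, 5 of 14 were higher, among them Sc5d (0.48, edgeR adjusted p = 0.000134), and 4 were lower, among them Ebp (−1.03, edgeR adjusted p = 7.06e-07), with a median of 0.02. These counts were close to the 27.1% and 31.4% of all genes tested, and the call of Sc5d was lost with the length and GC correction (0.15, edgeR adjusted p = 0.0762). In the fifth comparison 1 was higher (Sc5d, 0.41, edgeR adjusted p = 0.0271) and 2 were lower, with Ebp at −1.31 (edgeR adjusted p = 3.11e-05), against 15.9% and 19.8% of all genes tested. The Sc5d call was lost with the length and GC correction (0.12, edgeR adjusted p = 0.454), without a filter (edgeR adjusted p = 0.0881), with the replicate block (edgeR adjusted p = 0.0625), without B old 1 (edgeR adjusted p = 0.16) and without C old 3 (edgeR adjusted p = 0.0708).

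**Figure D3:**
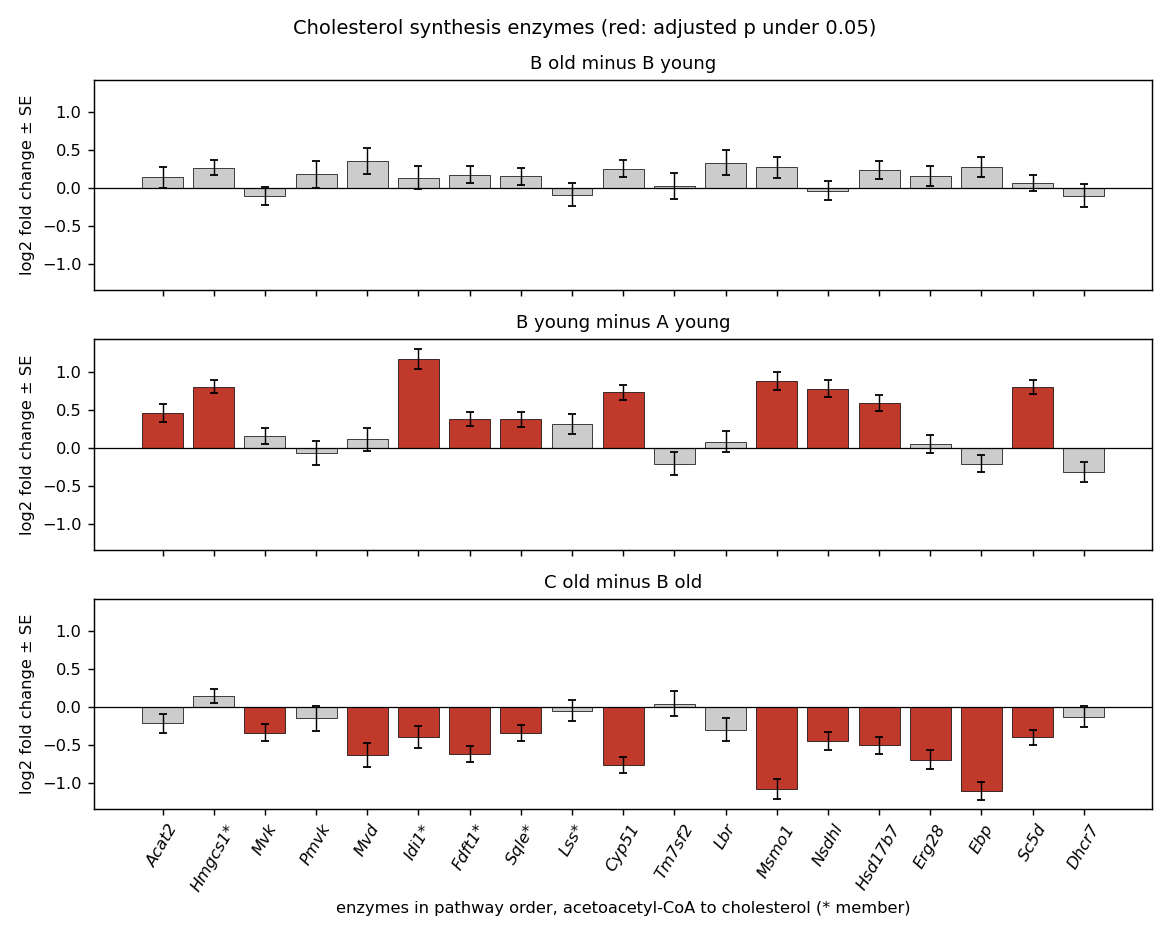
Log2 fold change with its SE (y axis) of the 5 member enzymes, marked with an asterisk, and 14 other cholesterol synthesis enzymes in approximate pathway order (x axis) in 3 comparisons, with red bars for an edgeR adjusted p under 0.05. No bar is red for age within batch B, red bars point up for B young against A young and down for C old against B old, where Hmgcs1 (0.15) is grey and positive.

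The genes that process or degrade the SREBP proteins gave another picture. Within batch B, 1 of 7 was called with age, against 1.54% of all genes tested called lower and 0.694% called higher. It was the ubiquitin ligase gene Rnf145, whose product acts on SCAP, which was lower in B old (log2 difference −0.54, SE 0.13, edgeR adjusted p = 0.0456). This call was lost in 12 of 21 alternatives, with adjusted p-values up to 0.265. Its levels were 92.7 and 72 CPM in B young and 61.0 and 52.3 CPM in B old. Scap (−0.16), Insig2 (−0.15) and Srebf1 (−0.29), the latter encoding the lipogenic factor SREBP1, were not called. Without B young 2, which left 1 B young library, Scap was at −0.37 and Srebf1 at −0.55.

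Between the young batches, 2 of 7 were higher, including Insig2 (0.47, edgeR adjusted p = 0.00766), and 2 were lower, which were Scap (−0.41, edgeR adjusted p = 0.0142) and Srebf1 (−0.41, edgeR adjusted p = 0.035), against 12.8% and 13.1% of all genes tested. Both lower calls were lost with the length and GC correction, which left values near 0 (Scap −0.04, edgeR adjusted p = 0.775, and Srebf1 −0.05, edgeR adjusted p = 0.752). Without B young 2 the calls of Scap (−0.20, edgeR adjusted p = 0.21), Srebf1 (−0.15, edgeR adjusted p = 0.457) and Insig2 (0.27, edgeR adjusted p = 0.154) were lost, and without B young 1 Scap and Srebf1 were at −0.66 and −0.73. That of Scap was also lost with the replicate block (edgeR adjusted p = 0.0579), and that of Srebf1 under scaling by total counts (edgeR adjusted p = 0.0697) and without A young 1, 2 or 3 (edgeR adjusted p = 0.0506 to 0.0911). Between the old batches, 1 was higher and 3 were lower in C old, including Insig2 (−0.46, edgeR adjusted p = 0.00499), against 26.9% and 28.3% of all genes tested. The Insig2 call was lost under scaling by total counts (edgeR adjusted p = 0.091) and without B old 2 (edgeR adjusted p = 0.0713). With the length and GC correction, Scap (−0.54, edgeR adjusted p = 6.97e-05) and Srebf1 (−0.42, edgeR adjusted p = 0.00235) were called lower. Between C old and A young, 5 of 7 were lower and 0 were higher, against 31.4% and 27.1% of all genes tested, among them Scap (−0.65, edgeR adjusted p = 4.99e-05) and Srebf1 (−0.68, edgeR adjusted p = 0.000142), and Srebf2 was lower in the same comparison. Scaled by total counts, Scap and Srebf1 were at −0.30 and −0.33 and remained called. In the fifth comparison 2 of 7 were lower, including Scap (−0.49, edgeR adjusted p = 0.0282), against 19.8% of all genes tested. This Scap call was lost in 5 alternatives, with edgeR adjusted p-values from 0.0542 to 0.312, of which 3 left out B old 2, B young 2 or C old 2.

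Of 9 genes of sterol uptake and transport, 0 were called with age in batch B, against 2.23% of all genes tested. Between the young batches 3 were lower in B young and 0 were higher, against 13.1% and 12.8% of all genes tested. They included the endocytic receptor gene Lrp1 (−1.08, edgeR adjusted p = 0.000789), which the length and GC correction reduced to −0.48, and the cholesterol exporter gene of lysosomes Npc1 (−0.56, edgeR adjusted p = 0.0108). The Npc1 call was lost without B young 2 (−0.25, edgeR adjusted p = 0.154), and without B young 1 its value was −0.96. Between the old batches 3 were lower and 1 was higher in C old, against 28.3% and 26.9% of all genes tested. The higher one was Lrp1 (1.04, edgeR adjusted p = 0.000228), whose call was lost with the length and GC correction (0.04, edgeR adjusted p = 0.797).

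Between C old and A young, 6 of the 9 uptake and transport genes were lower and 1 was higher, against 31.4% and 27.1% of all genes tested. The lower ones included the lysosomal lipase gene Lipa (−1.04, edgeR adjusted p = 1.12e-06), which was at −0.69 under scaling by total counts. The higher one was Stard4, a sterol transfer protein and SREBP2 target (0.45, edgeR adjusted p = 0.00129), whose call was lost with the length and GC correction (0.16, edgeR adjusted p = 0.122). In the fifth comparison 4 were lower and 0 were higher, against 19.8% and 15.9% of all genes tested.

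The opposing response, in which LXR factors promote cholesterol efflux and storage, was represented by 10 genes. With age in batch B, 0 of 10 were called, against 2.23% of all genes tested. Between the young batches 3 of 10 were lower in B young, including the exporter gene Abca1 (−0.66, edgeR adjusted p = 0.00648), against 13.1% of all genes tested. The Abca1 call was lost without B young 2 (−0.42, edgeR adjusted p = 0.122). Between the old batches 6 were higher in C old, including Abca1 (1.49, edgeR adjusted p = 3.08e-06), Apoe (1.42, edgeR adjusted p = 0.000191) and Nr1h2, the gene of LXR beta (0.40, edgeR adjusted p = 0.00647), and 2 were lower, including Soat1, which esterifies cholesterol for storage (−0.95, edgeR adjusted p = 1.98e-06), against 26.9% and 28.3% of all genes tested. The length and GC correction reduced Abca1 to 0.86, and the call of Nr1h2 was lost without B old 2 (edgeR adjusted p = 0.0799). Between C old and A young 3 were higher, including the exporter gene Abcg1 (1.21, edgeR adjusted p = 0.00187), and 4 were lower, including Ch25h, which makes an oxysterol (−2.48, edgeR adjusted p = 6.47e-06), which is near the 27.1% and 31.4% of all genes tested.

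Of the 8 genes of the non-sterol isoprenoid branch, 0 were called with age in batch B, against 2.23% of all genes tested. Between the young batches 4 were higher in B young and 0 were lower, against 12.8% and 13.1% of all genes tested, among them Ggps1, which makes geranylgeranyl diphosphate (0.82, edgeR adjusted p = 0.000118, reduced to 0.54 by the length and GC correction). In C old 4 were lower than in B old and 0 were higher, against 28.3% and 26.9% of all genes tested. Between C old and A young 3 were higher and 1 was lower, against 27.1% and 31.4% of all genes tested. That 1 was the dolichol synthesis gene Dhdds (−0.88, edgeR adjusted p = 1.00e-06), which was at −0.53 under scaling by total counts.

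**Figure D4:**
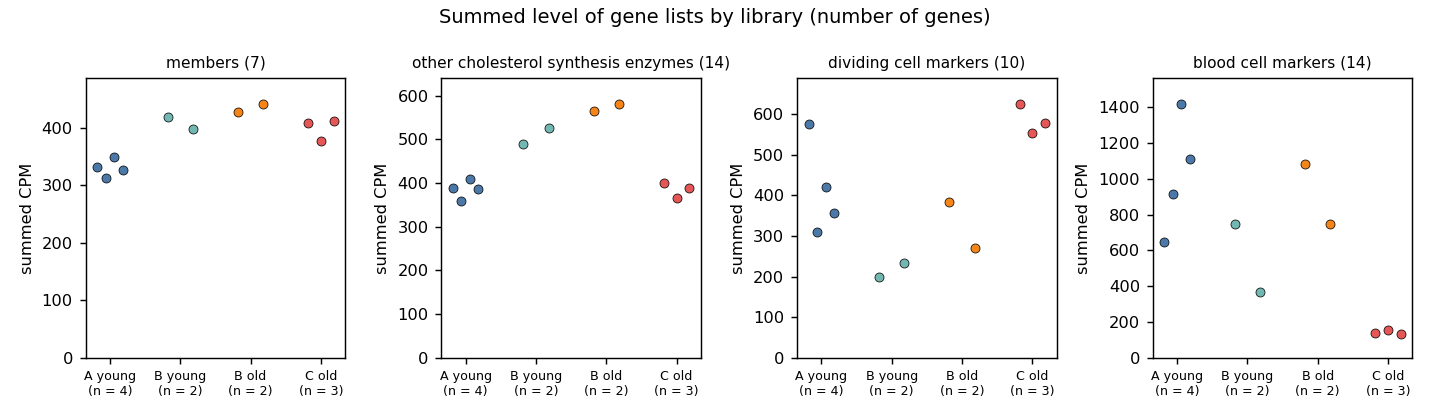
Summed CPM (y axis, from 0) of the 7 members, the 14 other cholesterol synthesis enzymes, the 10 markers of dividing cells and the 14 blood cell markers in each library of the 4 groups (x axis). The members and the other enzymes are highest in B old, at up to 442 and 581 CPM, whereas blood cell markers are lowest in C old, at 130.4 to 153 CPM.

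To find genes with a pattern like that of the members, log2 CPM of 13586 genes was correlated with the mean of the 7 members, centred per gene, over the 11 libraries. The most alike were Ccdc50 (Pearson r = 0.974), Gpbp1 (0.973), Bzw2 (0.972), Mphosph6 (0.971) and Acad9 (0.968). On deviations from the group means, which leave out differences between batches and ages, r was 0.593, 0.335, 0.614, 0.607 and 0.413 for these genes. Of the pathway lists, the most alike were Sc5d (rank 8, r = 0.961), Hsd17b7 (rank 21, r = 0.946) and Acat2 (rank 27, r = 0.941). On deviations from the group means, r was 0.333, 0.625 and 0.570 for these genes. Over the other cholesterol synthesis enzymes, r ranged from 0.961 for Sc5d to −0.753 for Dhcr7. The mean includes Srebf2, which correlated negatively with each other member, from −0.815 with Hmgcs1 to −0.195 with Lss. On deviations its values ranged from −0.507 with Hmgcs1 to 0.800 with Sqle. These values describe libraries that share batches, and no test was made.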

How the data were processed

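RNA of 11 libraries was sequenced by the authors. Their methods describe the processing for an oxygen comparison, and the same was assumed here: single-end reads were aligned with STAR to GRCm38 within zUMIs and counted per Ensembl gene with featureCounts. Raw counts were deposited by the authors for each gene, in whole numbers and without normalisation. Strand use is not stated.

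Counts were tested as deposited with edgeR 4.0.16 (quasi-likelihood test, R 4.3.3) on 4 group means over all 11 libraries, with TMM factors, filterByExpr at a minimum count of 5, two-sided tests and Benjamini-Hochberg adjustment over all 16132 genes tested at a threshold of 0.05. Libraries were grouped by the age and batch in the labels. An SE was derived from each fold change and F statistic. CPM values rest on totals scaled by TMM, and a prior count of 2 was added for log2 CPM. Of 28222 genes, 28179 were matched to GENCODE M21, which gave positions and transcript lengths. Promoter sequences came from RefSeq (GRCm38.p6) and were found for 5 members, and those of Sqle, Fdft1 and Fdps are not shown.

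The members and gene lists were chosen with earlier results of these data known. All members are named, together with Insig2, Scap and Srebf1. Some other pathway genes are not reported here and were left out of the lists. Other pathway genes are named from up to 4 genes per direction and comparison with the smallest p-values among those past the threshold, and the genes most like the members are the 5 with the highest correlation. Marker genes named with a fold change were chosen after their values were seen. Alternatives were limma-trend (limma 3.58.1, the study's method), scaling by total counts or RLE factors, DESeq2 1.42.0, no filter or a minimum count of 10, a length and GC correction (loess, span 0.3), the replicate number as a block, leaving out each library, batch B alone and no batch term. Tested on simulated counts with 200 of 16012 genes changed 2-fold between ages in batch B at a dispersion of 0.015, edgeR found 84% of those genes, and false calls made up 3.45%. The largest member difference with age in batch B was 1.28-fold (Insig1), and recovery at such sizes was not simulated. Counting errors and floors cover counting error only.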

Additional observations from a re-analysis of the deposited data

Results flagged for a closer look

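The difference between C old and A young MSCs exceeded the age difference within batch B for 2 members, by a test of the difference itself. For Hmgcs1 the excess was 0.956 on the log2 scale (edgeR adjusted p = 5.47e-05), from 1.23 in the first and 0.27 in the second comparison. For Idi1 it was 0.779 (edgeR adjusted p = 0.00622), from 0.92 and 0.14. For both genes, 3 of 3 C old libraries were above all A young libraries. Within batch B, 2 of 2 B old libraries were above both B young libraries for Hmgcs1, whereas for Idi1 1 B young library was above both B old libraries. Such a separation carries little weight with 2 libraries per group. The first comparison changes batch as well as age, which cannot be told apart. By construction, the excess equals the sum of the batch differences within young and within old MSCs. These were 0.81 and 0.15 for Hmgcs1 and 1.17 and −0.39 for Idi1. No library of A young stood apart from the other 3 for any of the 7 members tested, and the groups of 2 and 3 libraries were not tested for this.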

How the results depend on the processing

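Hmgcs1 and Idi1 between the young batches, Fdft1 between the old batches, Hmgcs1, Idi1 and Insig1 between C old and A young, and Hmgcs1 and Idi1 in the difference of the age comparisons were called in the same direction in all 19 alternatives. Within batch B, 0 members were called in all alternatives except that 2 were called without a batch term, which mixes batch with age, and that leaving out a library gave 0 to 2. Between the young batches, leaving out a library gave 3 to 6 called members, and between C old and A young 3 to 4. Between the old batches it gave 1 to 4, and the length and GC correction gave 5. In the difference of the age comparisons, scaling by total counts gave 4 instead of 2. All genes called in that difference went from 5763 to 6120 of 16132, and the share of higher ones among them from 44.5% to 71%. With the length and GC correction, 8918 of 16106 genes were called between the old batches, against 8902 of 16132. The number of all genes called also changed with the library left out.

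Scaling by total counts shifted the median of all genes to 0.21 between the old batches, 0.33 between C old and A young and 0.26 in the difference. Under it, Srebf2 and Fdft1 turned to 0.042 and 0.30 (the latter called, edgeR adjusted p = 0.00935), and Insig2 to 0.21 between C old and A young, Lss to 0.15 and Scap to 0.11 between the old batches, and Srebf2 and Fdft1 to 0.21 and 0.056 in the difference. The length and GC correction turned Srebf2 to 0.26 between the young batches, Srebf2 to −0.42 and Srebf1 to −0.42 between the old batches, Ggps1 to −0.033 between C old and A young, Sqle to −0.052 and Insig2 to −0.062 in the difference, and Lss to 0.00057 and Scap to 0.022 with age. Without a batch term Lss turned to 0.11 with age. The cause was not tested.

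Members that were not called passed the threshold in some alternatives. Srebf2 passed between the young batches in 2 of 19, higher with the length and GC correction (0.26) and lower without B young 1 (−0.35). Sqle passed between C old and A young in 4 of 19. Lss passed between the young batches in 3 of 19 and Insig1 between the old batches in 3 of 19, and in the difference Insig1 (0.39) and Lss (0.55) passed under scaling by total counts. Leaving out a library also turned signs. With age in batch B the values ranged from −0.077 to 0.39 for Idi1, −0.25 to 0.10 for Lss, −0.55 to 0.027 for Srebf1, −0.37 to 0.093 for Scap and −0.33 to 0.043 for Insig2. Between the young batches they ranged from −0.35 to 0.035 for Srebf2, and between the old batches from −0.087 to 0.029 for Lss and −0.016 to 0.043 for Srebf1. In the difference they ranged from −0.087 to 0.13 for Sqle, −0.19 to 0.19 for Insig2 and −0.28 to 0.11 for Srebf2.

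Of all genes, 360 were called with age in batch B, 31.1% of them higher. There were 1094 without a filter (46.4% higher), 640 with DESeq2, 123 in batch B alone, 2641 without a batch term (51.9% higher), 2007 without B young 2, 578 without A young 1 and 84 without B old 1. When libraries were scaled by total counts, the share of higher genes among those called went from 31.1% to 44.8% with age in batch B, from 49.4% to 65.4% between the young batches, from 48.7% to 63.1% between the old batches and from 44.5% to 71% in the difference.

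Same-numbered libraries were not clearly paired (B young and B old deviations correlated at r = 0.0365 across genes, A young and C old at 0.00149 to 0.0439). The largest values were 0.135 and 0.133 for A young with B old and −0.111 and −0.0774 for A young with B young. In groups of 2 libraries the deviations mirror each other, so that B young and B old give a single value. With the replicate block, 262 genes were called with age in batch B, Fdft1 was no longer called between the young batches (edgeR adjusted p = 0.0651), and Insig1 was called lower between the old batches (edgeR adjusted p = 0.0453). The count of all genes called between the young batches went from 4171 to 2566 under the block. The age difference within batch B rests on 2 libraries per group, and the counting error of the members was at most 7.88%.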
